A study of Mus musculus with 6 samples.

Results

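The genes described here are the Wnt ligands, their Frizzled receptors and the secreted antagonists of the pathway, with *Axin2* and *Lef1* as transcriptional readouts. They were chosen by gene symbol: 18 ligands, 10 Frizzled receptors, 5 genes of the secreted Frizzled-related family (*Sfrp1*, *Sfrp2*, *Sfrp4*, *Sfrp5* and *Frzb*), 4 Dickkopf genes, *Wif1*, *Axin2* and *Lef1*, 40 of the 55401 genes in the count table. The rule used no expression value. It left out *Wnt3a*, so the sums and shares of the ligands do not include that gene. RNA of whole mouse embryos at E10.5, all on a C57BL/6J background, was sequenced. WT embryos were wild-type littermates. 5C embryos carried 5 tandem copies of the microRNA gene *Mir483* at the endogenous *Igf2* locus, an allele built by cassette exchange in embryonic stem cells and passed on by chimeric males. Each genotype had 3 libraries, each made from a pool of 2 embryos that the study's methods describe as male, and no treatment is named.

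Wnt proteins are secreted, lipid-modified signals that bind Frizzled receptors on neighbouring cells. With the co-receptors Lrp5 and Lrp6 they stabilise β-catenin, which enters the nucleus and works with Tcf and Lef factors. Other Wnts, Wnt5a among them, act through Frizzled, Ror and Ryk proteins on cell polarity and movement. Secreted Frizzled-related proteins and Wif1 bind the ligands, and Dickkopf proteins such as Dkk1 bind Lrp5 and Lrp6. In the midgestation embryo these signals pattern the neural tube, extend the tail and build the limb buds.

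The libraries held between 6357343 and 19151368 counts, and 3 counts corresponded to between 0.157 and 0.472 CPM (counts scaled to a common library total), a limit that covers counting error only. *Mir483* itself averaged 0.442 CPM in WT (SD 0.129, n = 3) against 4.02 CPM in 5C (SD 1.33, n = 3), without overlap, and these counts come from longer transcripts, not from the mature microRNA. Several libraries stood apart. Replicate 2 of each genotype held at most 16 counts of each of the Y-linked genes *Kdm5d*, *Uty*, *Ddx3y* and *Eif2s3y*, against at least 275 in the others, and *Xist* was counted in every library (4339 to 10704 counts), while the pools are described as male. Markers of visceral yolk sac endoderm, which surrounds the embryo, summed to 6319, 263 and 523 CPM in the WT libraries and to 195, 179 and 1270 CPM in the 5C libraries. *Tbx4* measured 398.5 CPM in WT 3 and at most 9.39 CPM elsewhere. In pooled whole embryos, fewer cells of a type and less RNA per cell cannot be told apart.

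None of the Wnt genes was called different between the genotypes. A gene was called where its fold change passed 1.5 and its adjusted p (edgeR, Benjamini-Hochberg over all genes) was under 0.05. Of the 40 genes, 37 had enough counts to be tested, and 0 were called, beside 0% of all 16784 genes tested (over all genes DESeq2 called 11 and limma-voom 0, and edgeR with no count filter called 319). The smallest adjusted p over all genes in this edgeR fit was 0.169, for *Mir483* itself (log2 fold change 3.05). The edited gene was thus not called either, and the 0 calls say little about the Wnt genes in particular. At an unadjusted p under 0.05 there were again 0 of the 37, against 1011 genes (6.02%) over the whole table. DESeq2 and limma-voom also gave 0 of the 37, against 719 and 995 genes over the whole table. The smallest unadjusted p among the 37 was 0.0880, for *Fzd3*, and the smallest adjusted p was 0.781. For every one of the 37 the CPM ranges of the genotypes overlapped, whereas 11.4% of all genes tested had ranges that did not.

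The estimates were also small. The log2 fold change of 5C against WT was above 0 for 19 genes and below 0 for 18, with a median of 0.01 beside 0.00 over all genes tested. It ranged from -0.26 for *Wnt11* to 0.37 for *Sfrp4*. The median size of the log2 fold change was 0.11 for the Wnt genes and 0.11 for all genes tested. For 28 of the 37 (75.7%) the 95% interval of the fold change lay within 1.5-fold in either direction, as it did for 66.6% of all genes tested. The 28 were 10 of 16 ligands, 10 of 10 Frizzled receptors, 3 of 5 Sfrp and Frzb genes, 3 of 3 Dickkopf genes and both readouts.

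**Figure D1:**
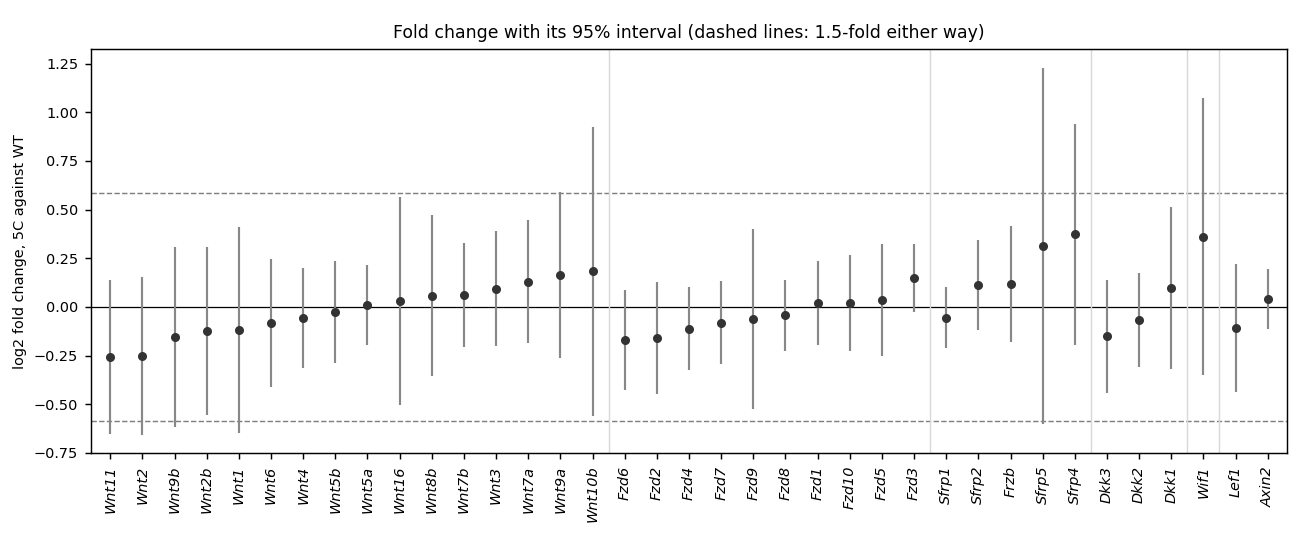
Log2 fold change of 5C against WT (y axis) for the 37 genes tested (x axis), in the order ligands, Frizzled receptors, Sfrp and Frzb, Dickkopf, *Wif1* and readouts. Points are edgeR estimates, bars are 95% intervals and dashed lines mark 1.5-fold. Every bar crosses 0, and the wide bars belong to genes of low count such as *Sfrp5*, *Wif1* and *Wnt10b*.

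The count of 0 at an unadjusted p under 0.05 did not hold when some single libraries were left out. It was 1 of 38 without WT 1 (*Sfrp2*), 2 of 38 without WT 2 (*Fzd3* and *Fzd4*) and 1 of 38 without 5C 1 (*Fzd2*), and 0 without each of the others. Over all genes tested, 779 of 16809 were under 0.05 without WT 1, 1803 of 17394 without WT 2 and 1458 of 16835 without 5C 1. The smallest adjusted p of a Wnt gene over all the fits was 0.431. With both libraries that were low in Y-linked counts left out, or with both that were high in yolk sac endoderm markers left out (WT 1 and 5C 3), the count was 0.

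*Mir483* gives rise to a pair of mature microRNAs. Their RefSeq sequences (GRCm38.p6, minus strand, chr7:142654932-142654952 and chr7:142654968-142654989) are shown because matches to the bases in capitals, the seed, were looked for in the 3′ UTRs of the Wnt genes.

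mmu-miR-483-3p: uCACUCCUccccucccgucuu

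mmu-miR-483-5p: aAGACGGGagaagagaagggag

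The letters AGGAGTG, which pair with the miR-483-3p seed, stood on the sense strand of the annotated 3′ UTR of 9 of the 40 Wnt genes (22.5%). Among tested genes with an annotated 3′ UTR it was 7 of 37 Wnt genes (18.9%), against 12.4% of 13900 genes. The 9 were *Wnt2b*, *Wnt7a*, *Wnt8a*, *Wnt9a*, *Wnt10a*, *Fzd3*, *Fzd6*, *Fzd8* and *Dkk3*, the last with a pair of matches. The letters CCCGTCT, which pair with the miR-483-5p seed, stood in *Lef1* alone (2.70% of the 37 tested, against 3.44%). Sites of 7 of the 9 genes and of *Lef1* are given here in the sense of the transcript (GRCm38), to show how they differ around the match, which is in capitals. The site of *Wnt10a* was the only one of them followed by an A, which makes it an 8mer.

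*Wnt2b* (chr3:104945827-104945855, minus strand): cgagggtacacAGGAGTGgagccttcaaa

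*Wnt7a* (chr6:91364524-91364552, minus strand): ggaggaagccaAGGAGTGttggccatcct

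*Wnt9a* (chr11:59332991-59333019, plus strand): ggctggtgggcAGGAGTGtaccccctaca

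*Wnt10a* (chr1:74803933-74803961, plus strand): ttcccttccccAGGAGTGataggcaatgc

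*Fzd3* (chr14:65200673-65200701, minus strand): cctttaaaactAGGAGTGcccacatgaca

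*Fzd6* (chr15:39037049-39037077, plus strand): aaaaaccaaccAGGAGTGcccagttaata

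*Dkk3*, first site (chr7:112118134-112118162, minus strand): tttattttcccAGGAGTGtccccaagtgt

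*Dkk3*, second site (chr7:112116375-112116403, minus strand): tccttcgtggcAGGAGTGcaaggttgctt

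*Lef1*, miR-483-5p (chr3:131223947-131223975, plus strand): acatttggcagCCCGTCTcacttagtttc

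Of the 7 genes with a miR-483-3p match that were tested, 4 (*Wnt2b*, *Fzd6*, *Fzd8* and *Dkk3*) had a log2 fold change below 0 and 3 (*Wnt7a*, *Wnt9a* and *Fzd3*) had one above 0. Their log2 fold changes ran from -0.17 to 0.16 with a median of -0.04, against a median of 0.01 for the 30 tested Wnt genes without a match and -0.02 for all 1730 tested genes with one. None of the 7 passed an unadjusted p of 0.05. The length of the 3′ UTR, which differs between genes and runs to 10270 bases in *Fzd3*, was not taken into account in these shares.

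To compare genes with each other, CPM was divided by the length of the gene's annotated exons in kb. On this scale the 40 genes spanned from *Fzd3* (51.1 CPM per kb, mean of 6 libraries) to *Dkk4* (0.0646 CPM per kb). After *Fzd3* came *Sfrp1* (42.6 CPM per kb), *Sfrp2* (29.3 CPM per kb), *Fzd7* (22.3 CPM per kb), *Fzd10* (21.3 CPM per kb), *Fzd2* (20.3 CPM per kb), *Axin2* (14.4 CPM per kb) and *Fzd1* (13.3 CPM per kb). Of the 39 neighbouring pairs in this order, 34 had ranges over the 6 libraries that overlapped, among them *Fzd3* and *Sfrp1*, *Sfrp2* and *Fzd7*, *Fzd7* and *Fzd10*, *Fzd10* and *Fzd2*, and *Axin2* and *Fzd1*, so that most single ranks are not fixed by these data. *Fzd3* lay above *Sfrp1* in all 6 libraries, though, and the ranges of *Sfrp1* and *Sfrp2*, of *Fzd2* and *Axin2* and of *Fzd1* and *Wnt5a* did not overlap. Most of the genes at the top are therefore receptors and antagonists, and the highest ligand, *Wnt5a* (10.51 CPM per kb), stood below them.

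**Figure D2:**
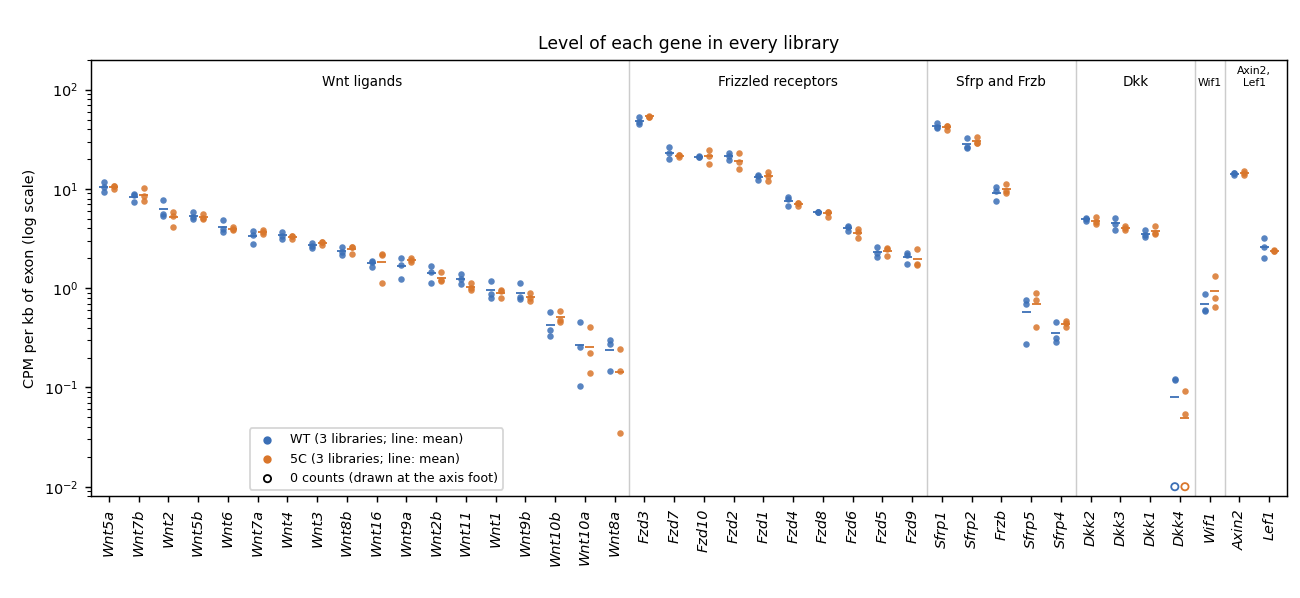
Level of each of the 40 genes in CPM per kb of exon (log y axis) in 3 WT (blue) and 3 5C (orange) libraries, with the mean as a line. Open circles at the foot mark libraries with 0 counts. *Fzd3* and *Sfrp1* lie highest, *Dkk4* lowest, and the points of the genotypes intermingle for every gene tested.

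Summed by role, the ligands reached 55.3 ± 1.18 CPM per kb in WT and 54.6 ± 1.004 CPM per kb in 5C (SD, n = 3). The Frizzled receptors summed to 149 ± 3.11 CPM per kb in WT and 150 ± 9.15 CPM per kb in 5C (SD, n = 3). For the Sfrp and Frzb genes the sums were 81.7 ± 3.17 and 83.4 ± 0.495 CPM per kb (SD, n = 3), and for the Dickkopf genes 13.03 ± 0.901 and 12.7 ± 0.809 CPM per kb (SD, n = 3). In each role the means differed by less than the larger of the SDs. The ratio of summed Frizzled to summed ligand level was 2.70 ± 0.0686 in WT and 2.74 ± 0.117 in 5C (SD, n = 3), again closer than the spread.

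Among the ligands, *Wnt5a* (chr14:28504750-28527448, plus strand), which drives outgrowth of tail and limbs by routes that largely bypass β-catenin, had the highest level. It stood at 82.1, 72.2 and 92.1 CPM across the WT libraries and at 84.2, 84.1 and 78.6 CPM across the 5C libraries. All 3 5C values fell between the lowest and the highest WT value. The estimate on the log2 scale was 0.01 ± 0.09 (SE), and the 95% interval of the fold change ran from 0.872 to 1.16. *Wnt5a* made up 18.98 ± 2.10% of the summed ligand level per kb in WT and 19.3 ± 0.458% in 5C (SD, n = 3). In 4 of the fits without 1 or a pair of libraries, *Wnt5a* had an estimate below 0, the lowest being -0.09.

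*Wnt7b*, a ligand of lung and other epithelia, was second per kb at 8.58 CPM per kb and measured 43.0, 43.6 and 36.5 CPM in the libraries of WT, against 50.3, 41.3 and 37.4 CPM in those of 5C. *Wnt2*, made in lung and heart mesoderm, followed with WT values of 12.6, 12.02 and 17.4 CPM and 5C values of 9.39, 13.3 and 12.2 CPM. For both the genotypes overlapped, and 5C 1 lay outside the WT range, above it for *Wnt7b* and below it for *Wnt2*. *Wnt5b*, the close relative of *Wnt5a*, measured between 13.1 and 15.5 CPM in WT and between 13.2 and 14.7 CPM in 5C. *Wnt6*, an ectodermal ligand, lay between 8.14 and 10.7 CPM in WT and between 8.45 and 9.04 CPM in 5C. *Wnt4*, known for kidney and gonad development, lay between 13.2 and 15.5 CPM in WT and between 13.1 and 14.2 CPM in 5C. For *Wnt5b* and *Wnt6* the 5C libraries sat inside the WT range, and for *Wnt4* the lowest 5C library lay just below it.

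The dorsal neural tube and midbrain ligand *Wnt1* had few counts, 54, 22 and 13 in WT and 38, 22 and 31 in 5C. In CPM these were 2.83, 1.89 and 2.07 in WT and 2.30, 1.88 and 2.21 in 5C. On the log2 scale 5C differed from WT by -0.12 ± 0.24 (SE), and the interval of the fold change, 0.638 to 1.33, was wider than for *Wnt5a*. Without WT 1, the library with the highest *Wnt1*, the log2 fold change was 0.12. Markers of the roof plate and dorsal neural tube summed to between 210 and 225 CPM in WT. In 5C they summed to between 243 and 248 CPM, a range that did not overlap. Most of this sum was *Zic1* (134 to 139 CPM in WT, 156 to 167 CPM in 5C). *Zic1* was the 1 of 6 markers under an unadjusted p of 0.05 (log2 fold change 0.25, edgeR adjusted p 0.781), where the background was 2.55% of all genes higher in 5C. For every other marker of this list the genotypes overlapped. Of the 6 estimates, 4 were above 0 and 2 below, and their median was 0.015. The part of these cells in the *Wnt1* values was not tested.

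*Wnt11*, which guides cell movement in heart and kidney, had the largest difference of the ligands. It had WT values of 4.56, 5.75 and 5.11 CPM and 5C values of 4.67, 4.18 and 3.99 CPM. A pair of 5C libraries lay below every WT library, and 5C 1 lay just above WT 1. This gave a log2 fold change of -0.26 ± 0.18 (SE) with an adjusted p of 0.786 (edgeR), and the fold change interval ran from 0.637 to 1.10. It stayed below 0 without each library in turn, between -0.35 and -0.16.

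The ligands of limb and brain gave overlapping values as well. *Wnt7a*, which marks the dorsal limb ectoderm, stood at 10.8, 12.02 and 8.77 CPM across the WT libraries and at 11.1, 11.6 and 12.2 CPM across the 5C libraries. *Wnt3*, needed for the limb ridge, lay between 7.87 and 8.84 CPM in WT and between 8.47 and 9.05 CPM in 5C. The forebrain ligand *Wnt8b* lay between 7.56 and 9.02 CPM in WT and between 7.62 and 9.14 CPM in 5C. *Wnt16* was similar in 5 libraries (7.21 to 9.54 CPM) and lower in 5C 1 (4.97 CPM). *Wnt9a* was lowest in WT 3 (4.15 CPM), with 5.75 to 6.77 CPM in the other libraries. *Wnt2b* measured 4.77 to 7.02 CPM over the 6 libraries, *Wnt9b* 3.33 to 5.07 CPM and *Wnt10b* 1.12 to 1.9997 CPM.

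A pair of ligands had too few counts to be tested. *Wnt10a* had 12, 3 and 7 counts in WT and 9, 4 and 14 in 5C, and *Wnt8a*, a ligand of gastrulation, had 10, 3 and 3 counts in WT and 1, 3 and 6 in 5C. Several of these counts are at or under 3, so that no difference was detectable at this depth. *Wnt10a* is a close neighbour of a more abundant ligand: *Wnt6* (chr1:74771892-74785322) ends 6.19 kb before *Wnt10a* (chr1:74791516-74804179) starts, on the same strand, and their levels were 4.08 and 0.263 CPM per kb. The other neighbouring pairs, which are transcribed away from each other, were *Wnt9b* and *Wnt3* on chromosome 11, 24.3 kb apart (0.858 and 2.78 CPM per kb), and *Wnt10b* and *Wnt1* on chromosome 15, 11.7 kb apart (0.467 and 0.924 CPM per kb). In each pair the levels differed, most of all for *Wnt6* and *Wnt10a*.

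Of the receptors, *Fzd3* (chr14:65192449-65262463, minus strand), known for axon guidance and closure of the neural tube, was the highest. It measured 571, 683 and 608 CPM in the libraries of WT, against 678, 701 and 684 CPM in those of 5C. All 5C libraries lay above WT 1 and WT 3, but WT 2 lay within the 5C range. 5C minus WT came to 0.15 ± 0.08 (SE) in log2 with an adjusted p of 0.781 (edgeR), and the fold change interval was 0.982 to 1.25. Without WT 2 the log2 fold change was 0.22. *Fzd3* took 32.5 ± 3.30% of the summed Frizzled level per kb in WT and 35.9 ± 2.34% in 5C (SD, n = 3), a difference close to the spread. Markers of the neural tube summed to between 668 and 716 CPM in WT and between 648 and 719 CPM in 5C. Most of this sum was *Nes* (421 to 509 CPM over the 6 libraries), the 1 of 6 markers lower in 5C in estimate. The other 5 were higher in estimate. For *Sox2* (log2 fold change 0.25) and *Pax6* (0.16) every 5C library lay above every WT library (background 6.26%). The part of these cells in the *Fzd3* values was not tested.

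*Fzd6*, which acts with *Fzd3* in planar polarity, had the largest difference of the receptors in size. It had WT values of 19.7, 18.3 and 20.4 CPM and 5C values of 15.3, 19.04 and 17.7 CPM. WT 2 lay below the highest 5C library, so the genotypes overlapped. In log2 the difference, 5C minus WT, was -0.17 ± 0.12 (SE), the adjusted p was 0.784 (edgeR), and the fold change interval was 0.743 to 1.06. *Fzd3* and *Fzd6*, which both carry the miR-483-3p match shown above, thus had estimates of opposite sign, neither past the test.

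*Fzd2*, a receptor for Wnt5a in mesenchyme, stood at 83.9, 72.0 and 79.4 CPM across the WT libraries and at 84.6, 68.0 and 57.9 CPM across the 5C libraries. The 5C libraries spread more widely than the WT libraries, from the highest of all 6 to the lowest. The estimate on the log2 scale was -0.16 ± 0.13 (SE), and the fold change interval was 0.733 to 1.09. It was -0.32 without 5C 1 and 0.02 without WT 1 and 5C 3, so that 1 or a pair of libraries set its size. *Fzd10*, a receptor of the dorsal neural tube, had the same order among the 5C libraries, with WT values of 67.7, 68.7 and 69.6 CPM and 5C values of 80.6, 70.2 and 57.8 CPM. For *Fzd10* the log2 estimate was 0.02 ± 0.11 (SE), and the fold change interval was 0.854 to 1.204.

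*Fzd7*, a receptor of stem and mesodermal cells, measured 103, 90.7 and 119 CPM in the libraries of WT, against 99.6, 101 and 94.5 CPM in those of 5C. *Fzd1* lay between 51.3 and 58.4 CPM in WT and between 50.0 and 62.2 CPM in 5C. *Fzd4*, the receptor for Norrin in blood vessels, lay between 44.8 and 56.0 CPM in WT and between 45.5 and 49.0 CPM in 5C. For these 3 receptors the range of 1 genotype enclosed that of the other. *Fzd8* was the most even of the receptors in WT, at 34.9 ± 0.0468 CPM, and measured 33.8 ± 2.10 CPM in 5C (SD, n = 3). *Fzd5*, needed for eye and yolk sac vessels, lay between 14.4 and 17.8 CPM in WT and between 14.5 and 17.6 CPM in 5C, and *Fzd9* between 3.93 and 5.70 CPM over the 6 libraries.

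The secreted Frizzled-related proteins were led by *Sfrp1* and *Sfrp2*, which together gave 87.6 ± 2.04% of the family's summed level per kb in WT and 86.7 ± 1.03% in 5C (SD, n = 3). *Sfrp1* had WT values of 182, 203 and 185 CPM and 5C values of 188, 188 and 172 CPM. On the log2 scale 5C differed from WT by -0.06 ± 0.07 (SE), and the fold change interval was 0.862 to 1.07. *Sfrp2* stood at 69.4, 56.6 and 55.5 CPM across the WT libraries and at 63.1, 62.1 and 72.0 CPM across the 5C libraries, where WT 1 sat among the 5C values. *Frzb*, expressed in limb cartilage precursors and paraxial tissue, measured 33.6, 24.4 and 31.1 CPM in the libraries of WT, against 30.7, 36.5 and 29.6 CPM in those of 5C. For *Frzb* the log2 estimate was 0.12 ± 0.13 (SE), and it was -0.01 without WT 2, its lowest library, and -0.11 without replicate 2 of both genotypes.

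*Sfrp4* had the largest log2 fold change of all 37 genes tested, on counts of 25, 14 and 12 in WT and 28, 23 and 26 in 5C. It had WT values of 1.31, 1.202 and 1.91 CPM and 5C values of 1.70, 1.96 and 1.85 CPM. WT 3 lay inside the 5C range. This gave a log2 fold change of 0.37 ± 0.25 (SE) with an adjusted p of 0.783 (edgeR), and the interval of the fold change reached from 0.874 to 1.92, which includes folds over 1.5. *Sfrp5*, with between 6 and 25 counts per library, varied most of the 37 genes between libraries of 1 genotype (coefficient of variation 41.1%).

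The Dickkopf antagonists had modest levels. *Dkk2* had the highest mean, 4.85 CPM per kb, with *Dkk3* above it in WT 2 (5.14 against 5.03 CPM per kb). It stood at 18.8, 18.6 and 17.5 CPM across the WT libraries and at 16.3, 19.4 and 17.1 CPM across the 5C libraries. 5C minus WT came to -0.07 ± 0.11 (SE) in log2. *Dkk1*, which restrains Wnt signalling for head formation, measured 9.39, 8.24 and 7.98 CPM in the libraries of WT, against 8.79, 10.3 and 8.54 CPM in those of 5C. In log2 the difference, 5C minus WT, was 0.10 ± 0.19 (SE), and it was -0.02 without replicate 2 of both genotypes. *Dkk3*, a divergent member of the family that carries a pair of miR-483-3p matches, had WT values of 15.1, 17.3 and 12.9 CPM and 5C values of 12.97, 13.7 and 14.4 CPM. The estimate on the log2 scale was -0.15 ± 0.13 (SE) with a fold change interval of 0.736 to 1.10, and all 3 5C values fell inside the WT range. *Dkk4* had 3, 0 and 1 counts in WT and 2, 0 and 1 in 5C, and was not tested. The 0 counts in replicate 2 of each genotype allow a level of up to 0.256 CPM in WT and 0.258 CPM in 5C.

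*Wif1*, which binds Wnt ligands directly, stood at 2.10, 1.46 and 1.44 CPM across the WT libraries and at 1.94, 3.24 and 1.57 CPM across the 5C libraries. The 5C 2 library alone lay above the WT range. The log2 estimate, second in size of the 37 genes, was 0.36 ± 0.32 (SE), and the interval of the fold change, 0.783 to 2.10, includes folds over 1.5. It was 0.03 without 5C 2 and -0.08 without replicate 2 of both genotypes.

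Both readouts of β-catenin signalling had fold change intervals within 1.5-fold. *Axin2* (chr11:108920349-108950783, plus strand), a direct target that feeds back on the pathway, measured 79.5, 75.5 and 79.1 CPM in the libraries of WT, against 84.1, 76.6 and 79.9 CPM in those of 5C. It had the smallest coefficient of variation between libraries of 1 genotype of the 37 genes, 3.91%, where the median was 10.7% for the Wnt genes and 10.6% for all genes tested. On the log2 scale 5C differed from WT by 0.04 ± 0.07 (SE), and the 95% interval held *Axin2* in 5C between 0.924 and 1.14 times the WT level. *Lef1*, the nuclear partner of β-catenin in limb and tail mesenchyme, had WT values of 22.9, 17.9 and 27.9 CPM and 5C values of 21.0, 21.1 and 20.9 CPM. The 5C libraries were nearly equal and lay inside the wide WT range. For *Lef1* the log2 estimate was -0.11 ± 0.15 (SE) with a fold change interval of 0.738 to 1.16, and it was 0.03 without WT 3.

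Each library held the highest value of some Wnt genes and the lowest value of others, though not evenly. WT 1, WT 2 and WT 3 held the highest value for 6, 5 and 6 of the 37 genes, and 5C 1, 5C 2 and 5C 3 for 8, 8 and 4. The lowest value lay in WT 2 and WT 3 for 10 genes each, and in the other libraries for 3 to 5. WT 1, which held the most yolk sac endoderm signal, was highest for 16.2% and lowest for 8.11% of the Wnt genes, against 18.1% and 18.6% of all genes tested. WT 2 was lowest for 27.0% of the Wnt genes against 15.9% of all genes, and WT 3 for 27.0% against 19.2%.

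**Figure D3:**
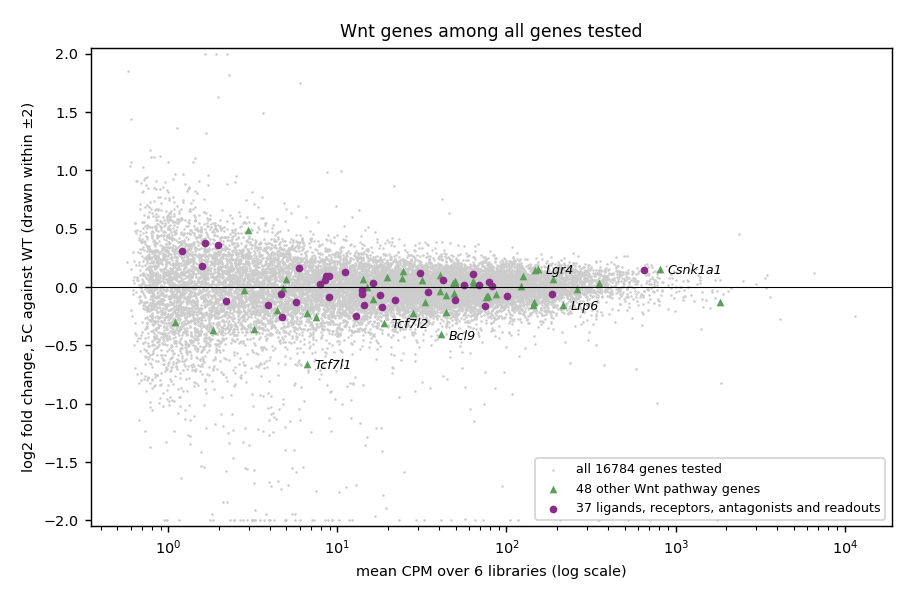
Log2 fold change of 5C against WT (y axis, values beyond 2 drawn at the edge) against mean CPM (log x axis) for all 16784 genes tested (grey), the 37 Wnt genes (purple circles) and 48 other genes of the pathway (green triangles). The purple circles keep within -0.26 and 0.37, and the 6 named triangles are those with an unadjusted p under 0.05.

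The other genes of the pathway, 50 listed by their role and 48 tested, were read from the same fit. None was called at an adjusted p under 0.05 (edgeR, smallest 0.781), and DESeq2 and limma-voom called none of them. At an unadjusted p under 0.05 there were 6 of 48, 4 lower and 2 higher in 5C, where the background was 3.47% of all genes lower and 2.55% higher. Of the 48, 3 had all 5C libraries above all WT libraries (background 6.26%) and 5 had them all below (background 5.1%). The count of 6 at an unadjusted p under 0.05 was 2 without 5C 2 or without 5C 3, 3 without WT 3 and 11 without WT 2. With both libraries low in Y-linked counts left out it was 9, and with WT 1 and 5C 3 left out it was 2. Counts over all genes tested moved as well, from 1011 of 16784 with all 6 libraries. They were 456 of 17396 without 5C 2, 756 of 16828 without 5C 3, 886 of 17329 without WT 3 and 1803 of 17394 without WT 2. With the libraries low in Y-linked counts left out 886 of 17355 were under 0.05, and with WT 1 and 5C 3 left out 781 of 16569.

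Of the 6 nuclear factors, 3 were lower in 5C at an unadjusted p under 0.05 (background 3.47% of all genes), and with DESeq2 and limma-voom 2 were. *Tcf7l1*, the Tcf factor that mainly represses Wnt targets, stood at 8.4996, 6.44 and 9.57 CPM across the WT libraries and at 5.39, 4.95 and 5.05 CPM across the 5C libraries. Each 5C library lay below each WT library. This gave a log2 fold change of -0.66 ± 0.18 (SE), or 0.634 of the WT level, and it had an unadjusted p of 0.00456, which adjustment over all genes (edgeR) took to 0.781. *Bcl9*, which links β-catenin to Pygopus proteins, measured 51.3, 38.1 and 51.2 CPM in the libraries of WT, against 37.9, 36.4 and 31.8 CPM in those of 5C. WT 2 and 5C 1 were almost equal, and the log2 estimate was -0.40 ± 0.13 (SE) with an unadjusted p of 0.0098. The adjusted p of *Bcl9* (edgeR) was 0.781, and it was 0.0145 with no count filter, at a fold change under 1.5. *Tcf7l2* had WT values of 19.6, 18.03 and 25.4 CPM and 5C values of 17.1, 17.2 and 16.02 CPM, with a log2 estimate of -0.31 ± 0.13 (SE) and an unadjusted p of 0.0463. *Tcf7l2* was not under 0.05 with DESeq2 (unadjusted p 0.0554), limma-voom (0.0636), library size alone, GC-content offsets or the replicate block, nor without WT 3, each of the 5C libraries, or WT 1 and 5C 3. *Tcf7l1* was among the genes under an unadjusted p of 0.05 in every fit run, and *Bcl9* in every fit but that without WT 1 and 5C 3. *Tcf7* (0.06 ± 0.15, SE) and *Pygo2* (-0.08 ± 0.07, SE), a partner of Bcl9, did not pass the test.

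**Figure D4:**
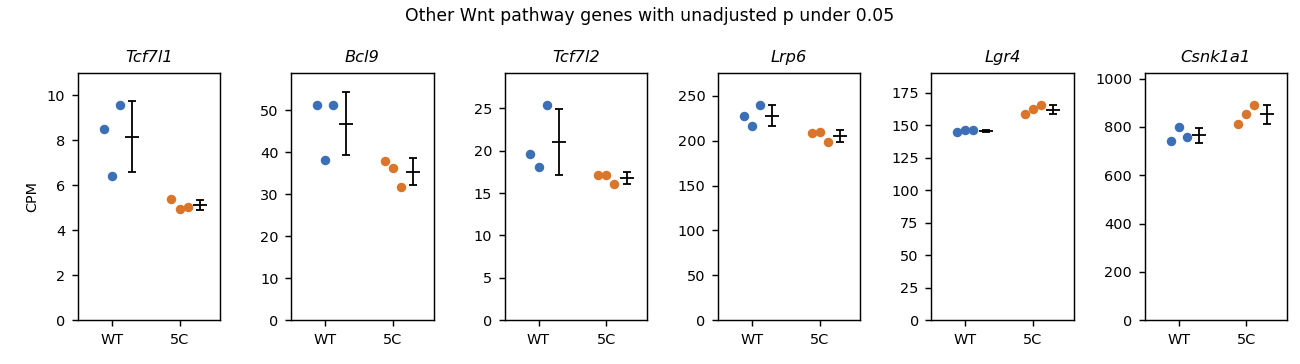
CPM (y axes from 0) in each WT (blue) and 5C (orange) library for the 6 other pathway genes with an unadjusted p under 0.05, with mean and SD in black (n = 3). The points of the genotypes do not overlap in any panel, and none of the 6 passed the adjusted threshold.

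Among co-receptors, *Lrp6*, the main partner of Frizzled for β-catenin signalling, stood at 228, 217 and 240 CPM across the WT libraries and at 208, 210 and 198 CPM across the 5C libraries. 5C minus WT came to -0.15 ± 0.06 (SE) in log2 with an unadjusted p of 0.0424. Its relative *Lrp5* measured 53.3, 39.0 and 49.9 CPM in the libraries of WT, against 38.7, 40.9 and 42.9 CPM in those of 5C, which overlapped, with a log2 estimate of -0.22 ± 0.12 (SE). *Ryk*, a receptor for Wnt5a, had WT values of 141, 152 and 129 CPM and 5C values of 141, 155 and 172 CPM, with a log2 estimate of 0.15 ± 0.09 (SE). Of the R-spondin axis, which keeps Frizzled receptors at the surface, the receptor *Lgr4* stood at 145, 146 and 146 CPM across the WT libraries and at 159, 162 and 166 CPM across the 5C libraries. The WT values of *Lgr4* were within 2 CPM of each other, and its log2 estimate was 0.16 ± 0.06 (SE) with an unadjusted p of 0.0226. The ligand *Rspo3* (0.14 ± 0.10, SE) and the ligase *Rnf43*, which removes Frizzled (-0.36 ± 0.21, SE), did not pass.

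In the cytoplasm, the kinase *Csnk1a1*, part of the complex that marks β-catenin for destruction, measured 740, 800 and 757 CPM in the libraries of WT, against 810, 855 and 890 CPM in those of 5C. In log2 the difference, 5C minus WT, was 0.15 ± 0.07 (SE) with an unadjusted p of 0.0488, just under the threshold. *Ctnnb1*, the β-catenin gene, had WT values of 1877, 2041 and 1861 CPM and 5C values of 1796, 1779 and 1704 CPM, with every 5C library below every WT library. The estimate on the log2 scale was -0.13 ± 0.07 (SE) with an unadjusted p of 0.0772, and *Ctnnb1* was under 0.05 with DESeq2 (0.0435) and limma-voom (0.0405), where it stood among the 6 genes in place of *Tcf7l2*. *Dvl3*, which relays the Frizzled signal, had a log2 estimate of -0.23 ± 0.11 (SE).

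Genes of ligand release did not pass the test: *Porcn*, which attaches the lipid, had a log2 estimate of -0.26 ± 0.16 (SE), and *Wls*, which carries Wnts to the surface, one of 0.07 ± 0.07 (SE). Of the further antagonists, *Kremen1*, the Dickkopf receptor, stood at 39.5, 39.3 and 37.8 CPM across the WT libraries and at 44.1, 40.6 and 40.4 CPM across the 5C libraries. These ranges did not overlap, and the log2 estimate was 0.10 ± 0.08 (SE). *Apcdd1* had one of 0.03 ± 0.08 (SE). Of the target genes, *Sp5* had the largest estimate, with WT values of 3.15, 1.89 and 2.23 CPM and 5C values of 3.58, 2.99 and 3.92 CPM. On the log2 scale 5C differed from WT by 0.49 ± 0.24 (SE) with an unadjusted p of 0.0695, and WT 1 lay above 5C 2. *Tnfrsf19*, another target, had a log2 estimate of 0.10 ± 0.10 (SE).

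Marker lists of the tissues in which Wnt genes act were read in the same way, as counts at an unadjusted p under 0.05. The background was 3.47% of all genes lower and 2.55% higher in 5C. All 10 markers of visceral yolk sac endoderm were lower in 5C in estimate, 3 of them under the threshold, and all 10 had overlapping genotypes. Of the heart markers 1 of 6 (*Myh6*, lower), of the neural tube 1 of 6 (*Sox2*, higher), of the limb bud 1 of 6 (*Tbx4*, through WT 3), of the decidua 1 of 5 (*Gzmg*, higher), and of primitive blood (6 tested) and the tail bud (4 tested) 0 were under it. The decidual marker *Prl3c1* was at 0 counts in 5 libraries and at 2 counts in 5C 3. Summed heart markers ran from 196 to 298 CPM in WT and from 175.6 to 189.6 CPM in 5C, which did not overlap. All 6 heart markers were lower in 5C in estimate, but *Myh6* alone separated the genotypes (background 5.1% of all genes with 5C below). Its lowest WT library held 61.1 CPM and its highest 5C library 48.9 CPM, whereas the genotypes overlapped for every other heart marker. Summed tail bud markers ran from 8.59 to 15.5 CPM in WT and from 10.7 to 16.4 CPM in 5C. Their part in the levels of the Wnt genes was not tested.

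The Wnt genes were richer in G and C than most. The GC content of the transcript had a median of 52.9% in the 37 genes tested (40.3 to 62.2%) and 49.4% in all genes. Across all genes tested, log2 fold change was related to GC content (Spearman's rho -0.31 over 16770 genes, which share the same 6 libraries and are no independent replicates), and across the 37 Wnt genes rho was -0.23. With GC content fitted in each library, no Wnt gene's log2 fold change moved by more than 0.084. The median move was 0.069, which is not small beside the median size of these log2 fold changes, 0.11. The median log2 fold change of the Wnt genes was then 0.02, beside 0.02 over all genes.

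**Figure D5:**
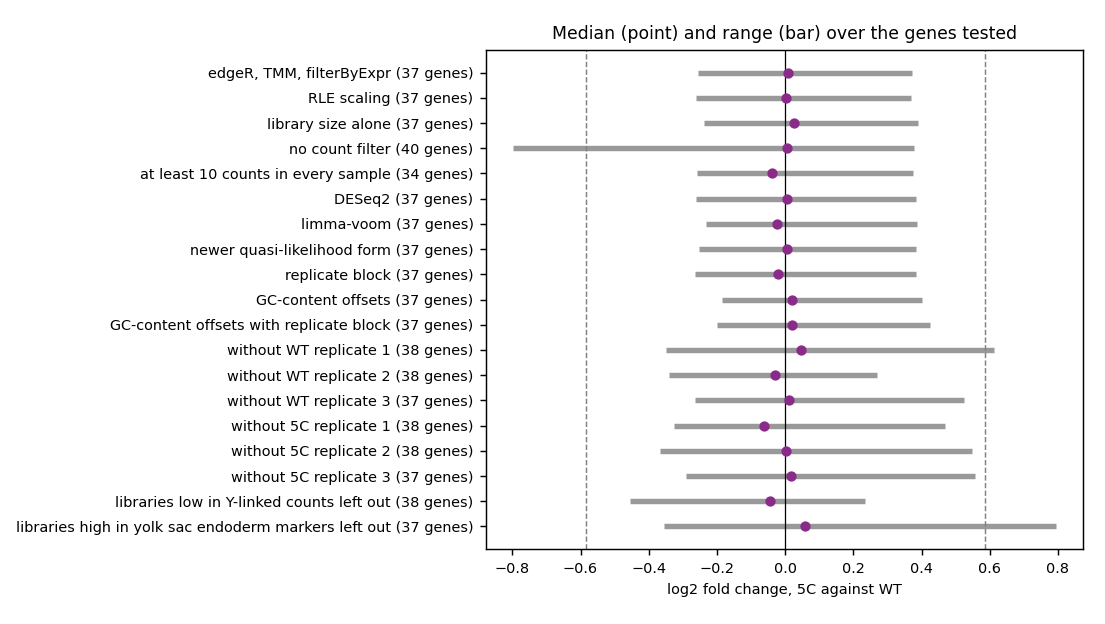
Median (point) and range (bar) of the log2 fold change of 5C against WT over the Wnt genes tested (x axis) under each processing (y axis, with the number of genes). Dashed lines mark 1.5-fold. The medians stay between -0.06 and 0.06, and the bars pass 1.5-fold with no count filter, without WT 1, and without WT 1 and 5C 3.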

How the data were processed

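RNA of 6 pools of E10.5 embryos (3 WT, 3 5C) was sequenced by the authors as poly(A)-selected stranded libraries, aligned with STAR to GRCm38 with Ensembl annotation, and deposited as raw counts per gene. The strand column used is not given in the sources used here. Exons of 8 of the 40 genes overlap a gene on the opposite strand, by at most 17.8%, and none overlaps one on the same strand. Genotype and replicate number came from the sample titles. Whether pools came from separate litters is not stated, so p-values measure the spread between these pools.

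Symbols, positions, exon lengths, 3′ UTRs and GC content came from GENCODE annotation of GRCm38, which held 55141 of the 55401 identifiers. Counts were tested with edgeR 4.0.16 in R 4.3.3: filterByExpr on genotype, TMM scaling, the legacy form of its quasi-likelihood F-test (two-sided) and Benjamini-Hochberg adjustment over all genes. Standard errors and 95% intervals were taken from the p-value and its t quantile. They are imprecise where the log2 fold change is very small, because the quantile is then very small too. The biological coefficient of variation was 13.6%. CPM used the TMM-scaled totals. The script was tested on simulated data. Alternatives were RLE scaling, library size alone, other count filters, DESeq2 1.42.0, limma-voom (limma 3.58.1), the newer quasi-likelihood form, the replicate number as a block, GC-content offsets, each library left out and, added after seeing the data, each of the pairs of libraries that stood apart.

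The genes and lists were chosen with earlier results of these data known. Fold changes with errors are given for the highest gene and the largest log2 fold change of ligands, Frizzled receptors, Sfrp and Frzb genes and Dickkopf genes, *Axin2*, *Lef1*, *Wnt5a*, *Wnt1*, *Fzd2*, *Fzd10*, *Frzb* and *Dkk1*, and, of the other pathway genes, for those under an unadjusted p of 0.05 and up to 2 more per role. *Wif1* was added after its values were seen.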

Additional observations from a re-analysis of the deposited data

How the results depend on the processing

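No Wnt gene was called under any of the alternatives. Over all genes, 0 were called by edgeR as run here (1011 at an unadjusted p under 0.05), 319 with no count filter, 11 with DESeq2, 2 without WT 1 and 5C 3 (chosen after seeing the data) and between 0 and 1 without each library in turn (1 without 5C 2 and 1 without 5C 3). With no count filter *Bcl9* had an adjusted p of 0.0145 (edgeR), while under the others it lay between 0.255 and 0.999. With the replicate number as a block, 2 other pathway genes had an unadjusted p under 0.05 in place of 6 (782 of 16784 over all genes). With GC-content offsets and the block 3 did (509 of 16784 over all genes), and *Pygo2* then had a log2 fold change of 0.000116. Deviations from the genotype means did not pair libraries of equal number (-0.174, 0.202 and -0.166 for replicates 1 to 3, mean -0.0461, against 0.0239 for unequal numbers), so equal numbers were not taken as pairs. The positive correlations included both libraries low in Y-linked counts (0.202), both high in yolk sac endoderm markers, WT 1 and 5C 3 (0.307), and WT 3 with 5C 1 (0.194). The cause of these shifts was not tested.

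Without each library in turn, the Wnt genes under an unadjusted p of 0.05 numbered 0 to 2, the other pathway genes 2 to 11 and all genes 456 to 1803. The median log2 fold change of the Wnt genes ran from -0.063 to 0.047 in these fits. Log2 fold changes that crossed 0 ran from -0.25 to 0.12 (*Wnt1*), -0.075 to 0.084 (*Wnt5a*), -0.10 to 0.14 (*Fzd10*), -0.0098 to 0.23 (*Frzb*), -0.26 to 0.031 (*Lef1*), -0.011 to 0.086 (*Apcdd1*) and -0.091 to 0.20 (*Tcf7*). Without replicate 2 of both genotypes, 6 estimates crossed 0: *Wif1* -0.079, *Wnt5a* -0.093, *Frzb* -0.11, *Dkk1* -0.018, *Apcdd1* -0.029 and *Tcf7* -0.070. Without WT 1 and 5C 3 the other pathway genes under 0.05 numbered 2 (all genes 781), and *Wnt1* (0.11) and *Fzd2* (0.017) crossed 0. Depth limits the 6 Wnt genes with under 10 counts in some library: *Wnt8a*, *Wnt10a*, *Wnt10b*, *Sfrp5*, *Wif1* and *Dkk4*.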
